A study of Mus musculus with 8 samples.

Results

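The serpins are a family of proteins that share one fold, and most of them inhibit serine proteases. The protease cuts an exposed loop of the serpin, which then snaps into the body of the inhibitor and leaves the enzyme trapped and distorted. Hepatocytes secrete many of the plasma serpins, among them alpha-1 antitrypsin, antithrombin and C1 inhibitor, whereas the clade B serpins mostly stay inside cells and a few members have no inhibitory role and instead carry hormones or fold collagen.

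The members are all probes on an Illumina bead array whose platform gene symbol begins with Serpin. These are 60 probes for 49 genes, of 25697 probes and 16593 named genes on the array. Livers came from male mice of the C3HeB/FeJ strain aged 21 weeks. The arrays comprised 4 from mice heterozygous for Jag1K295*, an allele with a stop codon in the gene for the Notch ligand Jagged1, and 4 from wild-type mice, 1 mouse per array. The series title names the heterozygous mouse a model for Alagille syndrome, in which bile ducts are too few, and the question here was whether the liver's serpin transcripts differed between the genotypes. The allele is carried in every cell, so no cell type is targeted. The titles shorten the heterozygous group to "hom", but the genotype label gives heterozygous, as does the design text, and the groups follow those.

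Mean signal per array was 422.4 to 452.7 on the heterozygous arrays and 437.8 to 488.1 on the wild-type arrays. The number of probes detected per array was 11022 to 11873 and 11303 to 11515 in the same order. The Jag1 probe was not detected on any array, with signals of 111.3 to 119.8 in heterozygous and 111 to 123.1 in wild-type livers, so it gave no check of the genotype. The hepatocyte markers Apoa1, Ttr and Cyp2e1 were detected on all 8 arrays. The Alb probe was detected on 2 of 8 and the Tat probe on 0 of 8, and an undetected probe does not show that its transcript was absent. In whole liver, fewer cells of a type and less RNA per cell cannot be told apart. All levels below are normalized log2 signals, and each difference is heterozygous minus wild type. The number of arrays limits the precision of every value.

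The alpha-1 antitrypsin genes, Serpina1a to Serpina1e, lie side by side on chromosome 12 and are the family's closest paralogs. Stretches of 100 bases around their annotated starts, from the RefSeq annotation of GRCm38.p6, are shown to compare the promoters of the copies. Each is read from the minus strand, and capitals mark the letters GTTAAT, one arm of the palindrome GTTAATNATTAAC that the hepatocyte factor HNF1 is known to bind. Each stretch was cut at a fixed distance around GTTAAT, so the shared position of the capitals follows from the cut. GTTAAT began at -78 from the annotated start in Serpina1e. It began at -27 to -16 in the other copies, whose stretches run past that start.
Serpina1a, chr12:103863582-103863681: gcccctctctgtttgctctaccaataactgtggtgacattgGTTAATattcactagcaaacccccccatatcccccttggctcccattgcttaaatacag
Serpina1b, chr12:103738157-103738256: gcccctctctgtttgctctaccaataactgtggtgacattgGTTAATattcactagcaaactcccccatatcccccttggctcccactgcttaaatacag
Serpina1c, chr12:103904919-103905018: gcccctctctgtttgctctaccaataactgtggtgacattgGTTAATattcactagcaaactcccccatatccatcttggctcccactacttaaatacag
Serpina1d, chr12:103773591-103773690: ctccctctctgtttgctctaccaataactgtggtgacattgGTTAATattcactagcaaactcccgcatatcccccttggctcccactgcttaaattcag
Serpina1e, chr12:103956917-103957016: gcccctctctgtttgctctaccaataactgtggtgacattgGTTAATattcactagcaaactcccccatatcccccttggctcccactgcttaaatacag

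The stretches of Serpina1b and Serpina1e were identical over all 100 bases. The least alike pair, Serpina1c and Serpina1d, shared 93 of 100. GTTAAT, sought on both strands in windows from 250 bases before to 50 bases after each annotated start, was present in 7 of the 17 tested Serpin genes that had a window. Those were Serpina1a to Serpina1e, Serpina7 and Serpinb8, and among the untested genes it was present in 2 of 25, Serpinb3d and Serpini2. Over all 32851 windows 2332 held it, or 7.1%. The whole palindrome was in 3 windows, none of a Serpin gene. These matches describe letters only. The 5 Serpina1 copies account for most of the tested genes with the motif and are not independent of each other. A probe for 1 copy may also take up transcript of another. Likeness of promoters does not show this, and it was not tested. The probes' own sequences were not used here.

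The liver arrays detected most genes of the secreted clade A and few of the intracellular clade B. Testing required a detection p-value, the chance of such a signal from the negative control beads, under 0.05 on at least 4 of 8 arrays. By that rule 28 of the 60 Serpin probes (46.7%) were tested, for 22 of 49 genes, against 44.4% of all probes on the array. Of the tested probes 25 were detected on all 8 arrays, and those for Serpinb6c, Serpinb8 and Serpinh1 were detected on 5 arrays each. Most clade A genes, 13 of 16, were tested. The clade A genes that were not were Serpina1f, Serpina3b and Serpina5, the last of which encodes protein C inhibitor. All members on the array of clades C, D, F, G and H were tested, namely Serpinc1, Serpind1, Serpinf1, Serpinf2, Serping1 and Serpinh1. In clade B only 3 of 25 genes were tested, Serpinb6a, Serpinb6c and Serpinb8. In clade I the figure was 0 of 2, the neuronal inhibitor Serpini1 and Serpini2.

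**Figure D1:**
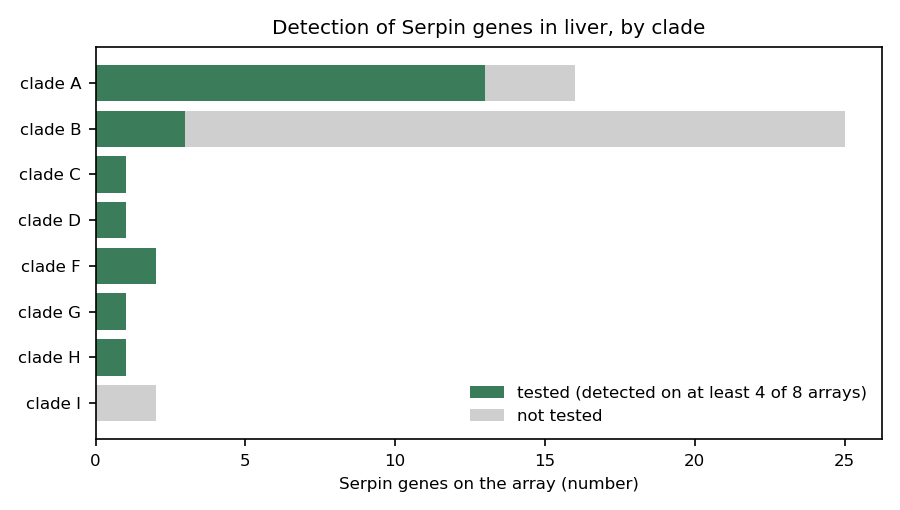
Number of Serpin genes on the array (x axis) in each clade (rows), with genes that passed the detection rule in green and genes that did not in grey. Clade A had 13 of 16 genes tested and clade B 3 of 25.

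The 22 clade B genes below the rule were Serpinb1a, Serpinb1b, Serpinb1c, Serpinb2, Serpinb3a, Serpinb3c, Serpinb3d, Serpinb5, Serpinb6b, Serpinb6d, Serpinb6e, Serpinb7, Serpinb9, Serpinb9b, Serpinb9c, Serpinb9d, Serpinb9e, Serpinb9g, Serpinb10, Serpinb11, Serpinb12 and Serpinb13. They include Serpinb9, an inhibitor of granzyme B in lymphocytes, and Serpinb2, an inhibitor of plasminogen activators. Over the whole family the 32 untested probes had deposited signals of 106.5 to 154.3. Of these, 30 were detected on no array. The exceptions were 1 probe for Serpina5, detected on 1 heterozygous and 2 wild-type arrays, and the probe for Serpinb1a, detected on 2 heterozygous and 1 wild-type arrays. Serpin genes without a probe in the deposited table were not analysed here. The detected genes followed the gene clusters. On chromosome 12, which holds the clade A cluster, 12 of 15 member genes were tested. The counts were 2 of 14 on chromosome 13 and 2 of 12 on chromosome 1, which hold the clade B clusters. The tested genes on chromosome 1 were Serpinb8 and Serpinc1, the latter of clade C.

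No Serpin transcript differed between heterozygous and wild-type liver at the adjusted threshold. Of the 28 probes 0 had an adjusted p under 0.05 in limma's fit over all 11412 tested probes, and the smallest adjusted p was 0.383. Over the whole array 1 probe passed, or 0.00876%. At an unadjusted p under 0.05 there were 2 Serpin probes (7.14%), Serpina9 higher and Serpinb8 lower, against 11.2% of all tested probes (5.26% higher and 5.95% lower), so the family's share was not above the background. With each gene read by its brightest tested probe, 11 Serpin genes lay above 0, 10 below and 1 at exactly 0. Genes below 0 made up 45.5% of the Serpin genes and 45.6% of all 7960 tested genes. The median difference was 0.003 over the Serpin genes and 0.013 over all genes, and the median size of the difference was 0.074 and 0.093. The 95% interval of the difference, not adjusted for the number of genes, lay within 1.5-fold in either direction for 20 of the 22 genes. The exceptions were Serpina9 and Serpina4-ps1. The 20 include Serpina1b, whose difference of 0 was set by the scaling and carries no information on the genotypes. Serpina1c, Serpina1d and Serpina1e are also among the 20, and the same scaling limits their values. The dim genes Serpinb6c, Serpinb8 and Serpinh1, whose fold changes are understated by the processing, are among the 20 too. These medians and intervals describe the genes that passed the detection rule and not all 49.

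**Figure D2:**
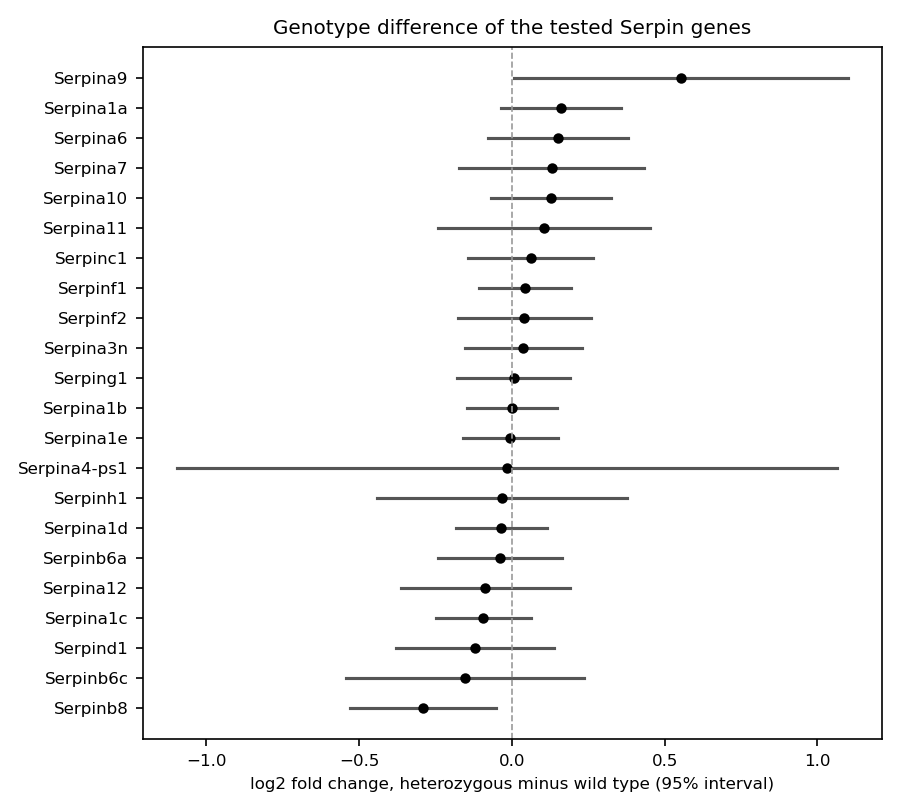
Log2 fold change, heterozygous minus wild type (x axis), of the 22 tested Serpin genes (rows), with points for the estimate from the fit and bars for its unadjusted 95% interval. The intervals of Serpina9 and Serpinb8 leave out 0, and that of Serpina4-ps1 is the widest, from -1.10 to 1.06.

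Serpina1a, one of the alpha-1 antitrypsin genes whose products inhibit neutrophil elastase, had the smallest p-value of its group. Its log2 signal was 12.92, 13.06, 13.07 and 13.19 in heterozygous livers, against 12.76, 12.999, 12.97 and 12.86 in wild-type livers. The groups overlapped, although 3 of 4 heterozygous values lay above every wild-type value. The difference was 0.16 ± 0.09 (SE, n = 4 each; limma adjusted p = 0.521), and a further Serpina1a probe gave 0.15.

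Serpina1c was the one tested Serpin gene whose groups did not overlap after normalization. It had 14.36, 14.45, 14.32 and 14.41 in heterozygous livers, against 14.48, 14.48, 14.47 and 14.47 in wild-type livers. Every heterozygous value was the lower, by a difference of -0.09 ± 0.07 (SE, n = 4 each; limma adjusted p = 0.642), which did not pass the test. Such a gap occurred in 1 of 22 Serpin genes (4.55%), or 1 of 28 probes (3.57%), against 5.79% of all tested genes (3.24% higher and 2.55% lower) and 6.25% of all tested probes.

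Serpina1d read 14.43, 14.43, 14.45 and 14.46 in heterozygous livers, against 14.46, 14.51, 14.48 and 14.45 in wild-type livers. Serpina1e read 14.55, 14.61, 14.51 and 14.61 in heterozygous livers, against 14.53, 14.55, 14.61 and 14.61 in wild-type livers. In both genes the groups overlapped, with differences of -0.03 and -0.01 (limma adjusted p of 0.876 and 0.986). Serpina1b read 14.71 on every array of both groups. This is a product of the scaling, since 1 of its probes was the brightest on all 8 arrays and quantile normalization gives the brightest probe of each array the same value. Its other probe differed by -0.02. Serpina1e, Serpina1d and Serpina1c ranked 2, 5 and 9 by mean signal among the tested genes. Quantile normalization gives each rank a fixed value, so these genes move between a few shared values, among them 14.48 and 14.47. The gap in Serpina1c and the spreads and intervals of these genes are limited by this.

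Before normalization the brightest Serpina1 probes were dimmer on the heterozygous arrays. The Serpina1c probe had deposited signals of 21008.4, 21967.9, 20425.4 and 21504.8 in heterozygous livers, against 23437.6, 23819.2, 23105.2 and 23751.4 in wild-type livers, a ratio of means of 0.902. One of the Serpina1b probes and the Serpina1d probe also had no overlap, at ratios of 0.924 and 0.928. The other Serpina1b probe and Serpina1e had ratios of 0.96 and 0.949 with overlap, and the Serpina1a probes, which are dimmer, had ratios of 1.02 and 1.01. A lower mean was also found in other bright probes. All 18 probes with a mean signal over 20000, of which 5 are Serpina1 probes, had the lower mean in heterozygous livers. Of the 18, 5 had no overlap, and these include the Serpina1b, Serpina1c and Serpina1d probes just named. Over all tested probes 1017 were lower without overlap (8.91%) and 13 higher. Whether these signals approach the ceiling of the scanner was not tested, and the part of overall array brightness in them was not tested beyond the scaling. With each array scaled to its median in place of quantile normalization, Serpina1c differed by -0.083 and Serpina1b by 0.0074.

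**Figure D3:**
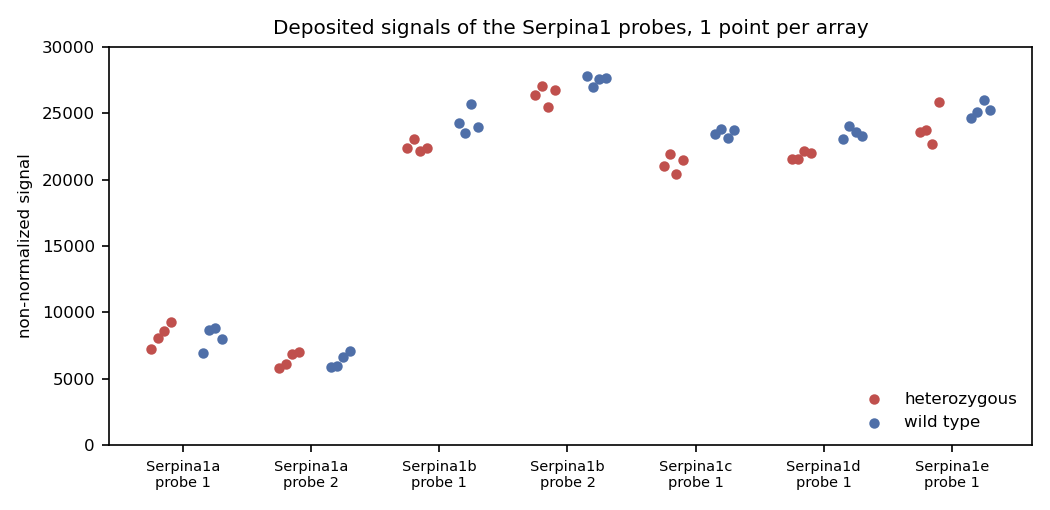
Deposited, non-normalized signal (y axis, from 0) of the 7 probes for Serpina1a to Serpina1e, with 1 point per array and heterozygous left of wild type. The Serpina1c signals lie between 20425.4 and 21967.9 in heterozygous livers and between 23105.2 and 23819.2 in wild-type livers, while the Serpina1a signals overlap.

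Serpina3n encodes an inhibitor that rises in the acute phase response of mice. Its log2 signal was 12.40, 12.57, 12.29 and 12.35 in heterozygous livers, against 12.26, 12.41, 12.34 and 12.45 in wild-type livers. The groups overlapped, the difference was 0.04 with a 95% interval of -0.15 to 0.23, and the limma adjusted p was 0.895.

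Serpina6 and Serpina7 encode hormone carriers that do not inhibit proteases, corticosteroid-binding globulin and thyroxine-binding globulin. Serpina6 had 11.53, 11.48, 11.79 and 11.51 in heterozygous livers, against 11.65, 11.31, 11.37 and 11.37 in wild-type livers. The highest value was a heterozygous one and the groups overlapped (difference 0.15 ± 0.10, SE, n = 4 each; limma adjusted p = 0.612). Serpina7, which lies on the X chromosome, had 9.72, 9.60, 9.51 and 9.19 in heterozygous livers, against 9.46, 9.64, 9.19 and 9.21 in wild-type livers. The heterozygous values covered the whole wild-type range (difference 0.13, limma adjusted p = 0.754).

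Several members act on blood clotting and its removal. Serpinc1, antithrombin, which blocks thrombin and factor Xa, averaged 9.28 ± 0.14 in heterozygous and 9.22 ± 0.09 in wild-type livers (SD, n = 4 each). Its difference was 0.06 and that of its other probe -0.06, so the direction depended on the probe. Serpind1, the thrombin inhibitor heparin cofactor II, had 12.10, 11.85, 12.41 and 11.95 in heterozygous livers, against 12.25, 12.18, 12.24 and 12.13 in wild-type livers. The heterozygous livers held both the highest and the lowest values, and the difference of -0.12 did not pass the test (limma adjusted p = 0.731). It was -0.233 without heterozygous replicate 3 (limma adjusted p = 0.359), -0.0439 without heterozygous replicate 2 and -0.0766 without heterozygous replicate 4.

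Serpina10 encodes the protein Z-dependent inhibitor of factor Xa. It had 12.07, 12.30, 12.07 and 12.09 in heterozygous livers, against 11.84, 12.05, 12.04 and 12.09 in wild-type livers. One heterozygous and one wild-type array stood away from the rest, in opposite directions, and the difference was 0.13 ± 0.09 (SE, n = 4 each; limma adjusted p = 0.616). Serpinf2, alpha-2 antiplasmin, the main inhibitor of plasmin, had 13.67, 13.77, 13.63 and 13.95 in heterozygous livers, against 13.69, 13.67, 13.59 and 13.90 in wild-type livers. The groups overlapped at a difference of 0.04, and 2 further probes gave 0.14 and -0.02.

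Serping1, the C1 inhibitor that restrains complement C1 and plasma kallikrein, averaged 13.49 ± 0.11 in heterozygous and 13.48 ± 0.07 in wild-type livers (SD, n = 4 each), a difference of 0.01 (limma adjusted p = 0.988). Serpinf1, pigment epithelium-derived factor, a secreted serpin without inhibitory activity, averaged 13.52 ± 0.03 and 13.48 ± 0.03 in the same order, a difference of 0.04. The SD between mice of 1 genotype, pooled over both, was 0.094 for Serping1 and 0.029 for Serpinf1. Its median over all tested genes was 0.146.

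Serpina12, vaspin, an inhibitor of a tissue kallikrein, had 12.86, 12.97, 12.59 and 12.62 in heterozygous livers, against 12.59, 12.84, 13.09 and 12.86 in wild-type livers. The groups overlapped, and its 2 probes differed by -0.09 and -0.16 (limma adjusted p of 0.826 and 0.797). Serpina11, whose target is not stated here, had 7.62, 7.81, 7.06 and 7.81 in heterozygous livers, against 7.62, 7.43, 7.35 and 7.47 in wild-type livers. The heterozygous group held the lowest value and both highest ones, and the difference was 0.11 (limma adjusted p = 0.833). It was 0.278 without heterozygous replicate 3 (limma adjusted p = 0.338), 0.0251 without heterozygous replicate 2 and 0.0272 without heterozygous replicate 4.

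**Figure D4:**
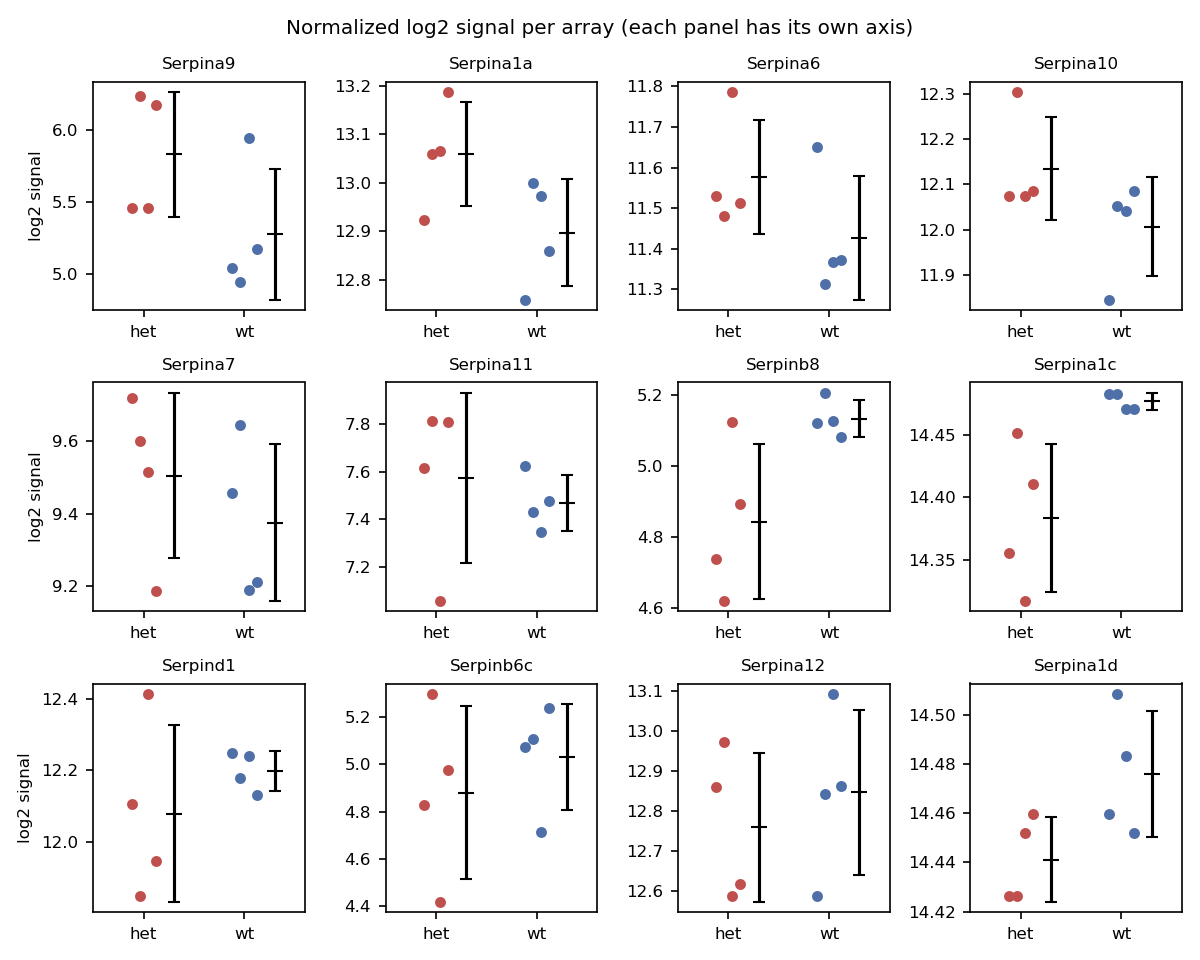
Normalized log2 signal (y axes, each panel with its own range) of 12 Serpin genes, those with the 6 smallest unadjusted p-values in each direction, in heterozygous (het, left) and wild-type (wt, right) livers, with 1 point per array and bars for mean ± SD (n = 4 each). Serpina1c is the one gene in which the groups do not overlap, and its heterozygous values run from 14.32 to 14.45.

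Serpina9, a gene known from germinal centre B cells, showed the largest difference of the 22 genes in this fit. Its log2 signal was 5.45, 6.23, 5.46 and 6.17 in heterozygous livers, against 5.04, 4.94, 5.94 and 5.17 in wild-type livers. All but one of the wild-type values lay below every heterozygous value. The difference was 0.55 ± 0.25 (SE, n = 4 each), or 1.47-fold, with a 95% interval of 0.01 to 1.10 and a limma adjusted p of 0.440. The signal was dim, with deposited values of 143.1, 170.2, 147.1 and 173.4 in heterozygous livers, against 133.5, 136.9, 175.4 and 145.2 in wild-type livers, near the range of the untested probes. Of the B cell markers, the 3 on the array, Cd79a, Cd79b and Ms4a1, did not pass the detection rule. Their summed normalized signal was 71 to 91.1 in heterozygous and 71 to 91.2 in wild-type livers.

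The intracellular clade B members were dim. Serpinb8 had 4.74, 4.62, 5.12 and 4.89 in heterozygous livers, against 5.12, 5.21, 5.13 and 5.08 in wild-type livers. One heterozygous array reached the wild-type range and the other heterozygous arrays lay below it. The difference was -0.29 ± 0.11 (SE, n = 4 each; limma unadjusted p = 0.0217, adjusted p = 0.383). The Serpinb8 probe was detected on 1 of 4 heterozygous and 4 of 4 wild-type arrays. It thus met the detection rule mainly through the group where it was higher, and this split is not separate support for the difference. Its deposited signals, 122.4 to 145.4, lay within the range of the untested probes. Serpinb6c, detected on 2 heterozygous and 3 wild-type arrays, had 4.83, 5.30, 4.42 and 4.98 in heterozygous livers, against 5.07, 5.11, 4.71 and 5.24 in wild-type livers. The groups overlapped widely (difference -0.15, limma adjusted p = 0.775). Serpinb6a, an inhibitor of cathepsin G and the one clade B gene detected on all 8 arrays, averaged 7.82 ± 0.09 in heterozygous and 7.86 ± 0.14 in wild-type livers (SD, n = 4 each). All 3 clade B differences lay below 0, none passed the test, and 45.6% of all tested genes lay below 0.

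Serpinh1 encodes Hsp47, a collagen chaperone of the endoplasmic reticulum. It had 4.85, 5.76, 4.84 and 4.96 in heterozygous livers, against 5.04, 5.08, 5.18 and 5.25 in wild-type livers. One heterozygous array lay above and the other heterozygous arrays below every wild-type value. The difference was -0.03 (limma adjusted p = 0.966), and the probe was detected on 1 of 4 heterozygous and 4 of 4 wild-type arrays. Of the 7 stellate cell and fibroblast markers, 4 were detected, and the summed list ran from 1855 to 2079.3 in heterozygous and from 1788.7 to 2538 in wild-type livers, with Col1a2, Col3a1 and Lrat detected on no array. Their part in the Serpinh1 signal was not tested.

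The member that varied most between mice did so within both genotypes. Serpina4-ps1, a transcribed pseudogene of the clade A cluster, was singled out after its values were seen. It had 9.92, 9.16, 8.06 and 8.94 in heterozygous livers, against 7.88, 8.57, 9.53 and 10.17 in wild-type livers. The groups covered much the same range, with a difference of -0.02 and a 95% interval of -1.10 to 1.06 (limma adjusted p = 0.993). Its deposited signals were 986.4, 619.1, 382.5 and 582.2 in heterozygous livers, against 319.3, 495.2, 943 and 1350.7 in wild-type livers, well above the untested probes. The highest normalized level was 4.92 times the lowest. Its SD between mice of one genotype, pooled over both, was 0.90 on the log2 scale and ranked 10 among 7960 genes. The median of that SD was 0.127 over the tested Serpin genes and 0.146 over all genes. Its immediate tested neighbour in the cluster, Serpina12, had an SD of 0.197. Serpina9, next along, had an SD of 0.443.

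**Figure D5:**
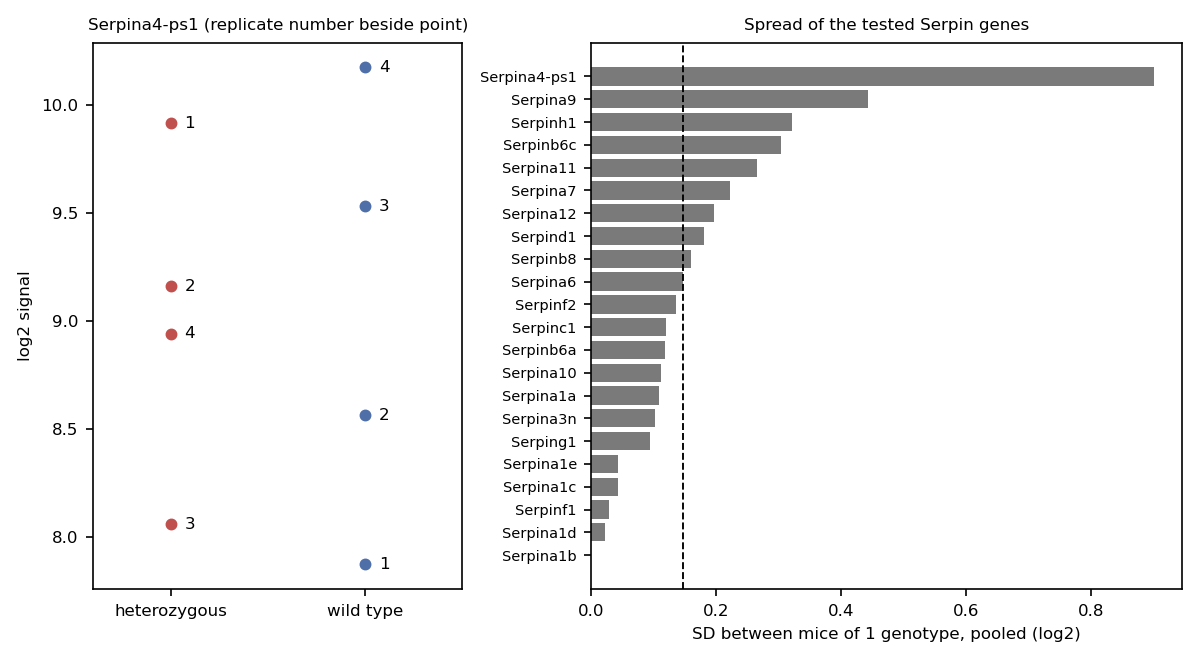
Left, normalized log2 signal of Serpina4-ps1 in heterozygous and wild-type livers, with 1 point per array and its replicate number. Right, pooled within-genotype SD (log2) of the 22 tested Serpin genes, with a dashed line at the median of all tested genes, 0.146; Serpina4-ps1 stands at 0.90.

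The proteases that serpins act on showed no adjusted call either. Among all tested genes, 9.8% had an unadjusted p under 0.05, 5.2% higher and 4.6% lower. Of 13 tested coagulation and fibrinolysis proteases, 2 reached that level, both higher, and the median difference was 0.033. They were F7, coagulation factor VII (0.23 ± 0.08, SE, n = 4 each; limma adjusted p = 0.370), and Habp2 (0.21, adjusted p = 0.423). The direction of Habp2 depended on the probe, with its other probes at -0.20 and 0.13 and the mean of its probes at 0.0437 (limma unadjusted p = 0.52). Of 7 complement proteases, 2 reached it, both lower, with a median of 0.044. They were C1s1, a target of C1 inhibitor (-0.42 ± 0.16, SE, n = 4 each; limma adjusted p = 0.393), and Masp2 (-0.18, adjusted p = 0.444). The other Masp2 probes gave 0.03 and -0.48, and Masp2 kept an unadjusted p under 0.05 in 9 of 18 alternative fits. Of 4 leukocyte and lysosomal proteases, 0 reached it, with Ctsl at -0.07 and Ctsb at 0.02.

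Other partners of the family gave the same counts of 0 at the adjusted threshold. Among 21 other secreted protease inhibitors, 4 had an unadjusted p under 0.05, all higher, and the median was 0.084. The smallest p-values were those of Itih3 and Itih2, heavy chains of the inter-alpha-trypsin inhibitors (0.28 and 0.25, limma adjusted p of 0.344 and 0.435). All 7 tested cofactors and clearance receptors lay above 0, where 45.6% of all tested genes lay below 0. Their median was 0.058, and 0.0164 with median scaling. Sdc4, syndecan 4, a heparan sulfate proteoglycan, had 10.12, 10.44, 10.61 and 10.57 in heterozygous livers, against 10.11, 9.73, 9.81 and 9.83 in wild-type livers. The groups did not overlap, although the lowest heterozygous value almost met the highest wild-type value, and the difference was 0.56 ± 0.12 (SE, n = 4 each; limma adjusted p = 0.213). Sdc1, syndecan 1, differed by 0.25 (limma adjusted p = 0.414). Its other probe gave 0.07, and the mean of its probes 0.16 (limma unadjusted p = 0.0822). Of 6 plasma carrier proteins, 0 reached an unadjusted p under 0.05, and the median was 0.041. Ttr, transthyretin, which like Serpina7 carries thyroid hormone, differed by -0.10 and Afm by 0.12.

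Genes that regulate or fold serpins were described in the same way. Of 9 liver transcription factors, 1 had an unadjusted p under 0.05, lower, and the median was -0.02. It was Foxa2, with 8.01, 7.33, 6.98 and 7.07 in heterozygous livers, against 7.99, 7.98, 7.90 and 7.88 in wild-type livers. One heterozygous liver lay above all wild-type livers and the other heterozygous livers lay below them. The difference was -0.59 ± 0.19 (SE, n = 4 each; limma adjusted p = 0.337). With 1 array left out it ranged from -0.807 to -0.465. The -0.807 came without heterozygous replicate 1, the liver above all wild-type livers, with a limma adjusted p of 0.0276. Without heterozygous replicate 2 the difference was -0.581 (limma adjusted p = 0.488). In 17 of 18 alternatives Foxa2 did not pass the adjusted threshold. Hnf4a differed by 0.19 (limma adjusted p = 0.488). Of 19 acute phase genes, 1 was higher and 1 lower at an unadjusted p under 0.05, with a median of 0.068. These were Mt2, a metallothionein (0.83), and Socs3, a feedback inhibitor of cytokine signalling (-0.89; limma adjusted p of 0.355 and 0.398). Of 12 collagen and collagen folding genes, 0 reached it, with Col4a1 at 0.17 and Kdelr2 at -0.16. Of 14 secretory quality control genes, 1 reached it, Edem1, which directs misfolded glycoproteins to degradation (-0.50, limma adjusted p = 0.397), and Sel1l differed by -0.19. The other Sel1l probe gave 0.03 and the mean of its probes -0.0771, so the direction depended on the probe.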

How the data were processed

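Liver RNA was read on 8 Illumina arrays. Per the file headers, the authors deposited non-normalized signal intensity for each probe with a detection p-value, exported from GenomeStudio 2011.1 per the submitters' processing notes. Their second deposited table gives processed intensity whose normalization is not given in the sources used here; it served as an alternative. Background was corrected with nec in limma 3.58.1 (R 4.3.3; offset 16), arrays were quantile normalized and values taken as log2, which understates the fold changes of dim probes. Probes with a detection p-value under 0.05 on at least 4 of 8 arrays were tested two-sided with lmFit and eBayes, and p-values were adjusted by Benjamini-Hochberg over all 11412 of them. The brightest tested probe stood for a gene. Platform symbols were used; updating them through Entrez identifiers changed 0 Serpin symbols. Promoters were read with Python 3.11.15 from RefSeq windows, which 42 of the 49 genes had.

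Full values are given for the 6 tested genes with the smallest p-values in each direction, the 5 with the highest signal and genes whose probes opposed each other at an unadjusted p under 0.05 (0 genes); from each partner list the 2 genes with the smallest p-values are named. Serpina3n, Serpinh1 and Serpina4-ps1 were added after their values were seen. Members and lists were chosen with earlier results of these data known. Each replicate is a separate mouse; no batch is named in the labels. Replicate numbers were checked for pairing through the correlation of same-numbered arrays, which was -0.067 to 0.133. Replicates 2 and 3 matched their own number best, and replicates 1 and 4 did not. With 4 arrays per group the check cannot exclude pairing, and the main fit treated the samples as unpaired. Alternatives varied background, scaling, detection filter, model and the arrays included.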

Additional observations from a re-analysis of the deposited data

Results flagged for a closer look

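In 3 Serpin genes a single array lay far from the other arrays of its genotype. Serpina10 read 12.30 on heterozygous replicate 2, where the other heterozygous arrays read 12.07 to 12.09. Serpina6 read 11.79 on heterozygous replicate 3, where the others read 11.48 to 11.53. Serpinh1 read 5.76 on heterozygous replicate 2, where the others read 4.84 to 4.96. These are 3 of 42 sets of 4 arrays examined, and chance would give about 1 in 20, or 2.1 sets.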

How the results depend on the processing

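The count of 0 Serpin probes past the adjusted threshold held under all alternatives run. The count at an unadjusted p under 0.05 was 2 and became 1 with an offset of 50, with array weights and under the replicate block, and 0 under the stricter detection filter and with the processed table. With a trended robust prior it was 3, all higher, and without background correction 2, both higher. Serpinb8 had a limma unadjusted p of 0.0566 with that prior and 0.101 without background correction, where that of Serpina9 was 0.0648. Leaving out 1 array gave 0 (without wild-type replicate 2) to 4 (without heterozygous replicate 3). Probe counts were not available with the mean of a gene's probes. Under the replicate block the limma unadjusted p of Masp2 was 0.0618, and no named gene passed the adjusted threshold. Of the named partner genes with an unadjusted p under 0.05, Sdc4, Foxa2 and Mt2 kept it in 18 of 18 alternatives, Itih3 in 17, F7 in 16, C1s1 in 14, Edem1 in 13, Habp2 and Socs3 in 12, Itih2 in 11 and Sdc1 and Masp2 in 9. With no detection filter 49 Serpin genes entered, in place of 22. The Serpin median ranged from -0.0178 to 0.0535 when 1 array was left out (0.0535 without heterozygous replicate 3). The median of the other secreted inhibitors, 0.084, was 0.0573 without background correction, 0.0597 with an offset of 50, 0.0502 with median scaling, 0.0599 with no filter, 0.0587 with the stricter filter and 0.0636 to 0.1 with 1 array left out. Median scaling gave -0.00943 for the coagulation proteases and -0.0608 for the leukocyte proteases, the mean of probes gave 0.132 for the liver transcription factors, and leaving out 1 array gave 0.0356 to 0.146 for the acute phase genes. With 1 array left out, differences near 0 changed sign in Serpina1e (-0.0197 to 0.0146), Serpinb6c (-0.292 to 0.00183), Serpinf2 (-0.0235 to 0.102), Ctsl (-0.154 to 0.0128) and Ctsb (-0.00616 to 0.0531), and Ctsb was -0.0467 with median scaling. The cause was not tested. Over the same fits Serpina6 ranged from 0.0813 to 0.226, Serpina7 from 0.0589 to 0.236, Serpina10 from 0.072 to 0.155 and Serpina12 from -0.173 to -0.00505. Over all alternatives Serpina9 ranged from 0.176 to 0.873 (limma adjusted p 0.321 to 0.729) and Serpinb8 from -0.385 to -0.0814 (limma adjusted p 0.277 to 0.652). Signals near background limit Serpina9, Serpinb6c, Serpinb8 and Serpinh1.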

Other observations

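Pairs of Serpin genes were compared over the 8 arrays, with each gene's genotype mean left in. Of 210 pairs among 21 genes, 11 had an unadjusted exact permutation p under 0.05 for Pearson's r and 0 passed after Benjamini-Hochberg adjustment (smallest adjusted p 0.477 for r and 0.64 for Spearman's rho). The pair with the smallest p was Serpina11 and Serpind1, with r = -0.894 (two-sided exact permutation p = 0.00337, adjusted p = 0.477) and rho = -0.762 (exact permutation p = 0.0368, adjusted p = 0.64). Without the 2 arrays farthest from the Serpina11 median, r was -0.739.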
